A study of Rattus norvegicus with 4 samples.

Results

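The cytokines examined were 10 signalling proteins of the gut mucosa, chosen to cover effector and regulatory types: Il10, Tgfb1, Ifng, Tnf, Il1b, Il6, Il15, Il18, Il33 and Il4. Their probes, the short oligonucleotides that each read 1 transcript on the array, were taken by gene name from the scanner files. The name search found 12 of 41012 probes, for 9 of the 10 genes. Il33 had no probe under that name. A table of RefSeq genes named 2 probes as Il33 through an older symbol, RGD1311155, and these are described beside the others. The members were not chosen by a threshold on any measured value, but they were chosen with earlier results of these data known.

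RNA had been taken from small intestine without Peyer's patches, from 1 male rat of the outbred Wistar stock per sample. Control rats, 2 in number, drank tap water. Compost rats, also 2, drank tap water that held 1.0% (v/v) of a compost extract, starting at 3 weeks of age and lasting 12 weeks. The extract was a fermented compost, diluted in water and heated before use, and body weights did not differ per the labels. The labels do not say which stretch of the bowel was taken. Each rat had 1 array, and p-values measure the spread between 2 rats a group. The 4 arrays shared 1 slide, where control rats held positions 1 and 2 and compost rats 3 and 4. Slide position and treatment therefore cannot be told apart. Median spot intensities were 80.8 to 113, 66.5% to 71.0% of gene spots were well above background, and the median of the negative control spots was 3.25 to 4.16 on the same intensity scale.

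Cytokines pass signals between immune cells, epithelium and stroma. Interleukin 10 (Il10) and transforming growth factor beta 1 (Tgfb1) restrain immune responses to food and bacteria in the gut wall. Interferon gamma (Ifng) and tumour necrosis factor (Tnf) drive effector responses, interleukins 1 beta, 6, 18 and 33 (Il1b, Il6, Il18, Il33) act as alarm and inflammatory signals, interleukin 15 (Il15) sustains intraepithelial lymphocytes and natural killer cells, and interleukin 4 (Il4) is a type 2 helper cytokine. The arrays measured their transcripts, not the proteins.

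The Il10 and Ifng transcripts were higher on both compost arrays than on both control arrays, by 2.71-fold for Il10 and 1.89-fold for Ifng. Their sizes depend on the background correction: with the normexp correction described below, the log2 differences fell from 1.44 to 0.60 for Il10 and from 0.92 to 0.36 for Ifng. Tgfb1 and 1 of the 2 Il1b probes were also higher on both compost arrays, with nearest arrays only 0.05 and 0.04 apart on the log2 scale. Tnf and Il6 were too faint for the test. Tnf lay higher on both compost arrays, but its groups overlapped with normexp, and no direction can be given for Il6. Il15 was the 1 member lower on both compost arrays, by 1.54-fold. Over all 28415 probes tested, the groups did not overlap for 12.4% higher and 15.5% lower. No member passed the test across all probes.

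The bases before the annotated start are shown for the tested members with a probe whose groups did not overlap, since these carry the differences described here. They are 250 bases from RefSeq on the rat assembly GRCr8, written 5′ to 3′ on the strand of the gene. Capitals mark matches to the motifs listed after them. Il10 had no entry in the table, which held windows for 9 of the 10 genes. The Ifng window is chr7:55788930-55789179, plus strand. The Il1b window is chr3:137036582-137036831, minus strand. The Il15 window is chr19:42544456-42544705, plus strand. The Tgfb1 window is chr1:90324062-90324311, plus strand.
Ifng: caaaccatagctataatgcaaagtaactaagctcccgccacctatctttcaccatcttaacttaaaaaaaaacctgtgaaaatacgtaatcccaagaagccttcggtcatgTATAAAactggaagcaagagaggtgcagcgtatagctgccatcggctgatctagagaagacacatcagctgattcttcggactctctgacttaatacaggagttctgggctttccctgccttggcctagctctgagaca
Il1b: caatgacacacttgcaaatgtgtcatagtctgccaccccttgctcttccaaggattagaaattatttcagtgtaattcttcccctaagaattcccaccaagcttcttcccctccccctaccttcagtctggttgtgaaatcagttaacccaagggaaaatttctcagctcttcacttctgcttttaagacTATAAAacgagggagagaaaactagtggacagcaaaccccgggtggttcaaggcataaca
Il15: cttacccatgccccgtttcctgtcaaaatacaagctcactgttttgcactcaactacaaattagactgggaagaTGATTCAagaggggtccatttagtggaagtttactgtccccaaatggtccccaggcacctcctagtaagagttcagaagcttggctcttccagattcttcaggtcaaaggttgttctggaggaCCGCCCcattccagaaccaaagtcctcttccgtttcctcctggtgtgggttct
Tgfb1: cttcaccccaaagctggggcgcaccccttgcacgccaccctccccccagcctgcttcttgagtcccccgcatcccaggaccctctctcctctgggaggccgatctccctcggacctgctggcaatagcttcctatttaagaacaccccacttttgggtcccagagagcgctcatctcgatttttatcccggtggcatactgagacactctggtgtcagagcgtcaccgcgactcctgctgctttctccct

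Motifs were searched on both strands: the TATA box TATAAA, the GC box GGGCGG, the AP-1 motif TGANTCA, the STAT motif TTCNNNGAA and the cyclic AMP response motif TGACGTCA. Ifng held TATAAA from -139 to -134 and Il1b from -60 to -55, counted back from the annotated start. Il15 held the GC box, read on the other strand as CCGCCC, from -53 to -48 and the AP-1 motif TGATTCA from -176 to -170, and these matches do not overlap. Tgfb1 held no match, and 60.0% of its bases were G or C, against 44.4% for Ifng. Of 33469 windows of the same length, 12.9% held TATAAA, 30.5% the GC box, 6.34% the AP-1 motif, 7.67% the STAT motif and 1.59% the cyclic AMP response motif. A match is a run of letters and not a measured binding site.

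Values below are given first as the spot intensity, background-subtracted by the scanner software and averaged over the spots of a probe, in the order control rat 1, control rat 2, compost rat 1, compost rat 2. Differences are compost minus control on a log2 scale, after the 75th percentile of each array was subtracted from the log2 intensity. Their errors are standard errors of the limma model, with n = 2 rats a group. Fewer cells of a type and less RNA per cell cannot be told apart in RNA from whole tissue.

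Il10, which limits antigen presentation and inflammatory cytokine release, was read by 1 probe printed in 10 spots. Its intensity was 31.6 and 32.5 in control rats, against 134 and 69.2 in compost rats. All 10 spots were well above background on every array. On the scaled log2 level the values were -4.61 and -4.55 in control rats and -2.88 and -3.40 in compost rats, so the groups did not overlap and their nearest arrays lay 1.15 apart. The difference was 1.44 ± 0.24, with a limma adjusted p of 0.909.

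The repeated spots of Il10 showed how well each array fixed that level. They ran from 25.5 to 39.8 and from 27.5 to 36.3 in control rats, and from 120 to 143 and from 65.3 to 72.6 in compost rats. All 20 compost spots were brighter than all 20 control spots. The spots of 1 array sample the same RNA, so they describe the array's precision and not the spread between rats. Before background subtraction the spot signal was 144, 145, 251 and 185 against a local background of 93.5, 94.7, 92.8 and 89.3. With a normexp background correction, which fits a model of background and signal to each array and adds an offset of 50, the difference was 0.60 and the groups still did not overlap. Leaving out each array in turn gave differences of 1.18 to 1.70.

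**Figure D1:**
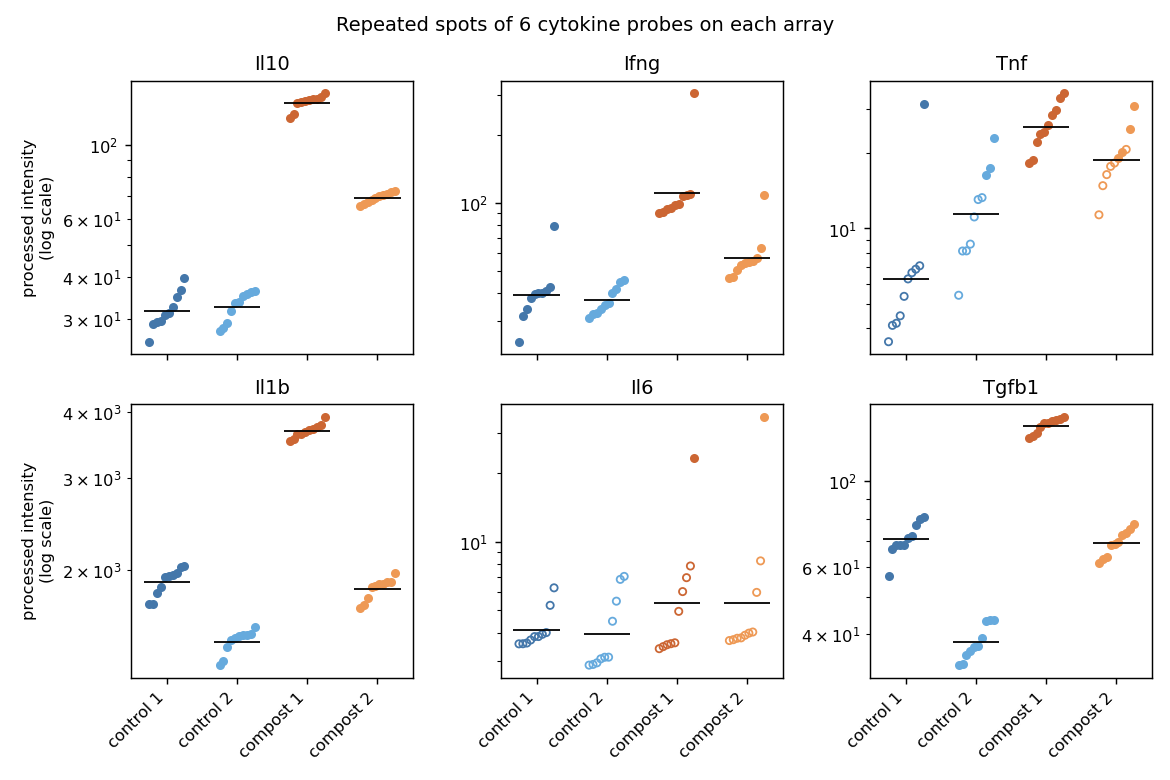
Intensity of every spot of the members printed in 10 spots, on a log axis, by array. Each point is 1 spot, filled where it was well above background and open where it was not. The 20 Il10 spots of compost rats lie above the 20 of control rats, while the Il6 points are open except for 1 on each compost array.

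Tgfb1, which supports tolerance and immunoglobulin A class switching in the gut, was read by 1 probe with 10 spots. Control rats gave intensities of 70.6 and 38.1, and compost rats 140 and 69.1. The levels were -3.45 and -4.32 against -2.82 and -3.40, so control rat 1 and compost rat 2 differed by only 0.05. The difference was 0.77 ± 0.38, a 1.71-fold higher mean, with a limma adjusted p of 1.0. On the scaled level, 11 of its 20 compost spots lay above every control spot. The difference was 0.34 without control rat 2, 1.21 without control rat 1 and 0.34 with normexp.

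Ifng, the main activator of macrophages and of interferon response genes in epithelium, was also read by 1 probe with 10 spots, all well above background on every array. The intensity was 39.0 and 36.9 in control rats, and 111 and 57.1 in compost rats. The levels were -4.30 and -4.36 in control rats and -3.16 and -3.67 in compost rats, with 0.63 between the nearest arrays. The difference was 0.92 ± 0.24, with a limma adjusted p of 1.0. It was 0.36 with normexp, and 0.66 to 1.18 when each array was left out in turn.

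The Ifng spots were less even than those of Il10. Their median standard deviation over the 4 arrays was 0.39 on the log2 scale, the 5th largest among 208 tested probes with 10 spots, whose median was 0.073. Il10 had 0.114. The brightest Ifng spot was 78.7 and 45.7 in control rats, and 306 and 108 in compost rats, and the faintest was 24.2, 31.0, 89.9 and 46.2. On the scaled level, 5 of 20 compost spots lay above every control spot, while 19 of 20 control spots lay below every compost spot. With the median over spots in place of the mean, the Ifng intensity was 39.5, 35.6, 98.5 and 54.4 and the difference was 0.81.

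Tnf, a cytokine of macrophages and T cells that loosens epithelial barriers, was too faint for the test, which needed most of a probe's spots well above background on at least 2 arrays. Control rats gave 6.3 and 11.5, and compost rats 25.3 and 18.7. Of its 10 spots, 1 and 3 were well above background in control rats and 10 and 4 in compost rats. Only compost rat 1 therefore had the probe above background. The scaled levels were -6.94 and -6.05 against -5.29 and -5.28, which do not overlap. Measured against the lowest level that counted as above background on the control arrays, the compost mean was 1.24-fold higher. That value is not a lower bound, since compost rat 2 was itself not above background. With normexp the difference was 0.09 and the groups overlapped.

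Il1b, an inflammatory cytokine of macrophages that is cleaved before release, was bright and was read by 2 probes. The probe with 10 spots gave 1891 and 1456 in control rats, and 3685 and 1839 in compost rats. On the scaled level its groups lay 0.04 apart without overlapping, and the difference was 0.50 ± 0.28. The other probe gave 2441, 1757, 4376 and 2266, with a difference of 0.45 ± 0.28 and overlapping groups. With each array left out in turn, the difference was 0.22 to 0.78 for the first probe and 0.20 to 0.71 for the other. In both probes compost rat 1 was the highest array and control rat 2 the lowest. The limma adjusted p was 1.0 for each.

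Il6, which drives acute-phase responses and B cell maturation, could not be measured. Its intensity was 4.1, 3.9, 5.4 and 5.4, near the negative control spots. A single spot of 10 was well above background on each compost array, at 23.3 and 35.1, and none on the control arrays. Neither a direction nor a fold can be given.

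Il15 was the member that lay lower in compost rats. Its probe, printed in 1 spot, gave 1798 and 1411 in control rats, against 1261 and 1046 in compost rats. The scaled levels were 1.22 and 0.89 against 0.35 and 0.52, so the groups lay 0.37 apart. The difference was -0.62 ± 0.21, with a limma adjusted p of 1.0. It was -0.62 with normexp and between -0.79 and -0.46 when each array was left out.

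Il18, made by epithelium as a precursor and a partner of Il15 and interleukin 12 in inducing Ifng, had 2 probes whose groups overlapped. The brighter gave 1837, 1620, 2747 and 1178, with a difference of -0.09 ± 0.31. The other gave 320, 245, 459 and 198, with -0.04 ± 0.33. In both, the highest and the lowest array were compost rats 1 and 2. Il33, an alarm signal of stroma and epithelium, likewise overlapped in both probes. They gave 156, 138, 150 and 147, and 1100, 1246, 1645 and 947, with differences of -0.13 ± 0.22 and -0.06 ± 0.22.

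Il4 was dim, and control rat 1 stood above the other arrays. Its probes gave 85.0, 41.0, 67.1 and 28.2, and 53.0, 23.2, 26.7 and 22.8. Their groups overlapped, with differences of -0.59 ± 0.46 and -0.66 ± 0.43. Without control rat 1 each was -0.07, and without control rat 2 they were -1.11 and -1.24. With normexp the first was -0.31 and its groups did not overlap.

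**Figure D2:**
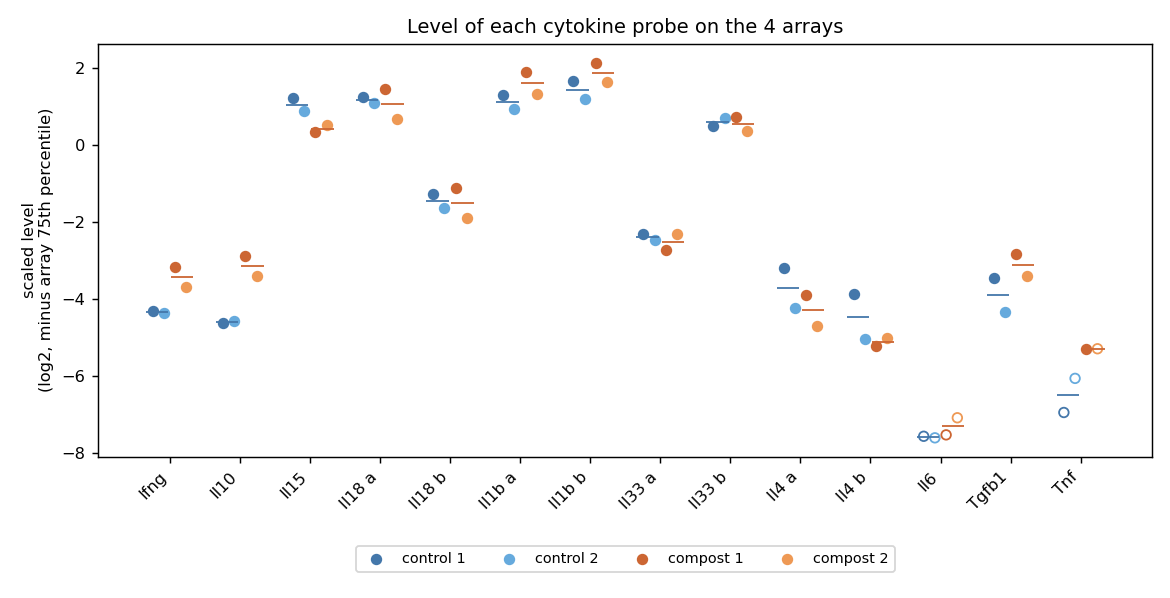
Scaled log2 level of every member probe on each of the 4 arrays. Each point is 1 array; filled points are well above background and open points are not, and the letters a and b mark the 2 probes of a gene. Il10, Ifng, Tgfb1 and Il1b a are higher on both compost arrays, by a narrow gap for Tgfb1 and Il1b a, and Il15 is lower on both. Tnf and Il6 were too faint for the test. The Tnf points also lie higher on both compost arrays, while the Il6 points lie near the negative control spots and give no direction.

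Over the 10 probes tested under the members' own names, for 7 genes, none had a limma adjusted p under 0.05, and neither did any of the 28415 probes tested (0.0%). At an unadjusted p under 0.05, 2 member probes were higher in compost rats, Il10 and Ifng, against 1.41% of all probes. Il15 alone was lower, against 1.8% of all probes. The groups did not overlap for 4 member probes that were higher, against 12.4% of all probes, and for 1 that was lower, against 15.5%. The other 5 overlapped, as did both Il33 probes. By gene, 4 of 7 were higher and 3 lower, with a median difference of 0.45 against -0.02 over the 24313 genes tested, of which 11299 were higher and 13014 lower (46.5% and 53.5%). The number of arrays limits what a single value can show: the smallest two-sided exact permutation p for 2 against 2 is 0.333.

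**Figure D3:**
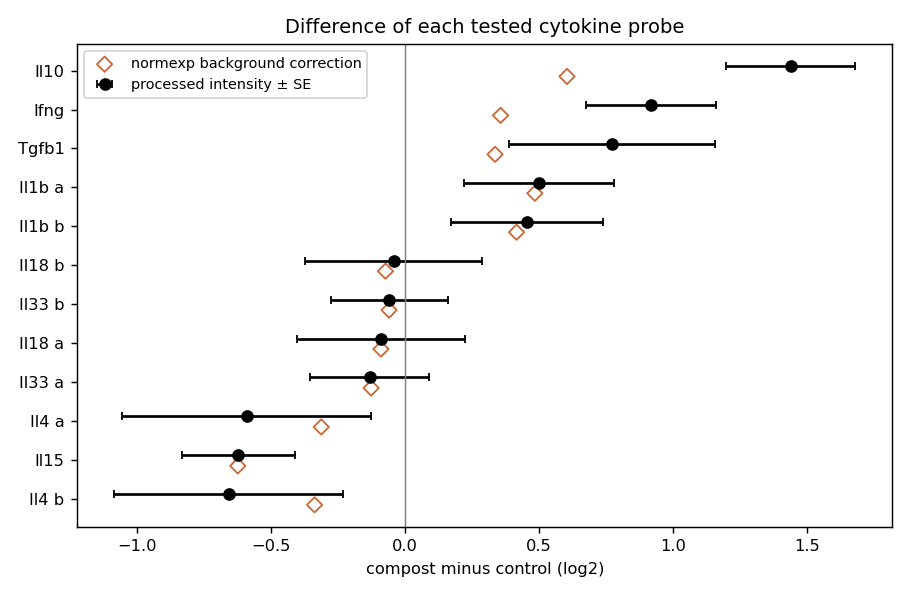
Difference of compost minus control on the log2 scale for each tested member probe, with the standard error of the limma model as bars; open diamonds give the value with normexp background correction. Il10 at 1.44 and Ifng at 0.92 lie farthest above 0, and the Il4 and Il15 probes lie below it.

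The order of the members' differences depended on the background correction. With normexp, Il15 at -0.62 and Il10 at 0.60 were of like size, followed by the 2 Il1b probes at 0.48 and 0.42, Ifng at 0.36 and Tgfb1 at 0.34. Without control rat 1, Tgfb1 at 1.21 lay above Ifng at 0.95.

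The genes whose pattern over the 4 arrays lay closest to a member were found by the root mean square distance between levels, each centred on its own mean. Closest to Il10 were Lag3, an inhibitory receptor of lymphocytes, at 0.09, Ido1, an enzyme that breaks down tryptophan, at 0.09, Msln, a surface protein of mesothelium, at 0.10, Cd2, an adhesion receptor of T cells, at 0.11 and Fcgr2b, an inhibitory antibody receptor, at 0.14. Closest to Ifng were Upk3a, Snx10, Batf2 and Tnfrsf9, each at 0.04, and Tnfsf4 at 0.08. Tnfrsf9 and Tnfsf4 encode a costimulatory receptor and a costimulatory ligand. Closest to Tgfb1 were Chrna7 at 0.06, Prf1, the pore protein of cytotoxic cells, at 0.09, Ifi214 at 0.09, Fgf7 at 0.10 and Itgb2, a leukocyte integrin chain, at 0.11. Closest to Il15 were Snx18, Fhip2a, Oxct2b and Or4d10c, each at 0.04, and Kat6a at 0.05. Only 4 arrays define these patterns, so many unrelated genes can share one.

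Genes of the pathway were described by lists of their roles, and the 4 genes of each list with the smallest unadjusted p are named. No gene of any of these lists had a limma adjusted p under 0.05, and over all genes tested the groups did not overlap for 12.7% higher and 15.2% lower. Of 25 receptors and antagonists of the members, 22 were tested: 14 were higher and 8 lower in compost rats, with no overlap for 5 and 2, and a median of 0.13. Il1rl1, the Il33 receptor, had levels of -2.86 and -2.43 in control rats and -2.00 and -1.28 in compost rats, a difference of 1.00 ± 0.32. Il18bp, the soluble antagonist of Il18, had -1.14 and -0.56 against 0.44 and -0.31, a difference of 0.91 ± 0.36. Il1rap, the shared chain of the Il1 and Il33 receptors, differed by 0.40 ± 0.20 and Il2rg, a chain of the Il15 and Il4 receptors, by -0.38 ± 0.22. The other gene lower without overlap was Il18r1, at -0.19 ± 0.18.

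Receptors of the members that differed most were read outside that naming rule, with their values known. The Il10 receptor chains overlapped between the groups, with 0.37 ± 0.64 for Il10ra, which was above background on 1 of 2 control arrays, and -0.01 ± 0.32 for Il10rb. So did the Ifng receptor chains, with 0.13 ± 0.20 for Ifngr1 and -0.19 ± 0.22 for Ifngr2. Tgfbr2, a Tgfb1 receptor, had levels of -4.01 and -3.95 in control rats and -3.32 and -3.89 in compost rats, a difference of 0.38 ± 0.26, while Tgfbr1 overlapped at -0.25 ± 0.23.

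Of 16 genes that process or activate the members, 10 were tested: 7 were higher and 3 lower, and all 10 overlapped between the groups, with a median of 0.06. The values with the smallest p were 0.63 ± 0.44 for Mmp9, a protease that can release Tgfb1, 0.40 ± 0.29 for Itgb6, an integrin chain that activates it, -0.16 ± 0.20 for Gsdmd, the pore through which Il1b and Il18 leave cells, and -0.16 ± 0.23 for Furin, which cleaves the Tgfb1 precursor.

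Of 38 feedback and response genes downstream of the members, 29 were tested: 24 were higher and 5 lower, with no overlap for 11 and 2, and a median of 0.28. Ido1, which Ifng induces, had levels of -3.57 and -3.37 in control rats and -1.96 and -2.33 in compost rats. Its difference was 1.33 ± 0.22, with a limma adjusted p of 0.901. Chi3l1, a secreted lectin of inflamed mucosa, differed by 0.77 ± 0.22, Gbp5, an interferon-induced guanylate binding protein, by 0.57 ± 0.22, and Ccl20, the chemokine that draws cells to follicle epithelium, by 1.04 ± 0.44. Other interferon targets, read outside the naming rule with their values known, were closer to 0, overlapped or lay lower: Irf1 gave 0.01 ± 0.29, Cxcl9 0.94 ± 0.49 and Cxcl11 -0.43 ± 0.20. Cxcl9 overlapped through compost rat 2, at -2.47 against -2.43 in control rat 2. Ski, a repressor of Tgfb1 signalling, was the other gene lower without overlap, at -0.36 ± 0.19.

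Of 47 other cytokines, 23 were tested: 15 were higher and 8 lower, with no overlap for 8 and 3, and a median of 0.12. Tnfsf4 differed by 0.75 ± 0.25 and was above background on 1 of 2 control arrays. Il16, a chemoattractant of T cells, differed by 0.72 ± 0.29, Ltb, a cytokine needed for lymphoid follicles, by 0.78 ± 0.32 and Tnfsf11, which guides the epithelium over follicles, by 1.20 ± 0.53. The 3 lower without overlap were Il2, the T cell growth factor, at -0.58 ± 0.37, Il24 at -0.45 ± 0.22 and Il17b at -0.30 ± 0.21. Among the 12 that were too dim to test were Il5 and Il13, type 2 cytokines like Il4, and Il12b and Il23a, which lie upstream of effector T cells.

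Of 16 regulators of cytokine production, 11 were tested: 5 were higher and 6 lower, with no overlap for 3 in each direction, and a median of -0.03. Icos, a costimulatory receptor of T cells, differed by 0.96 ± 0.28, Prdm1, a factor of plasma cells and of T cells that make Il10, by 0.68 ± 0.21, Batf, a factor of activated lymphocytes, by 0.78 ± 0.26, and Maf, an activator of Il10 transcription, by -0.54 ± 0.21. Maf thus lay lower in compost rats, at 1.93 and 2.27 against 2.68 and 2.60 in control rats. The others lower without overlap were Gata3, the factor of type 2 helper T cells that make Il4, at -1.34 ± 0.58, and Tbx21, the factor of T cells and natural killer cells that make Ifng, at -0.74 ± 0.35. Gata3 was above background on 1 of 2 compost arrays, with levels of -3.24 and -4.93 in control rats and -5.35 and -5.50 in compost rats, and its difference was -0.52 with normexp. Foxp3, the factor of regulatory T cells, was read outside the naming rule. It was above background on 1 array of each group and gave 0.10 ± 0.32.

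**Figure D4:**
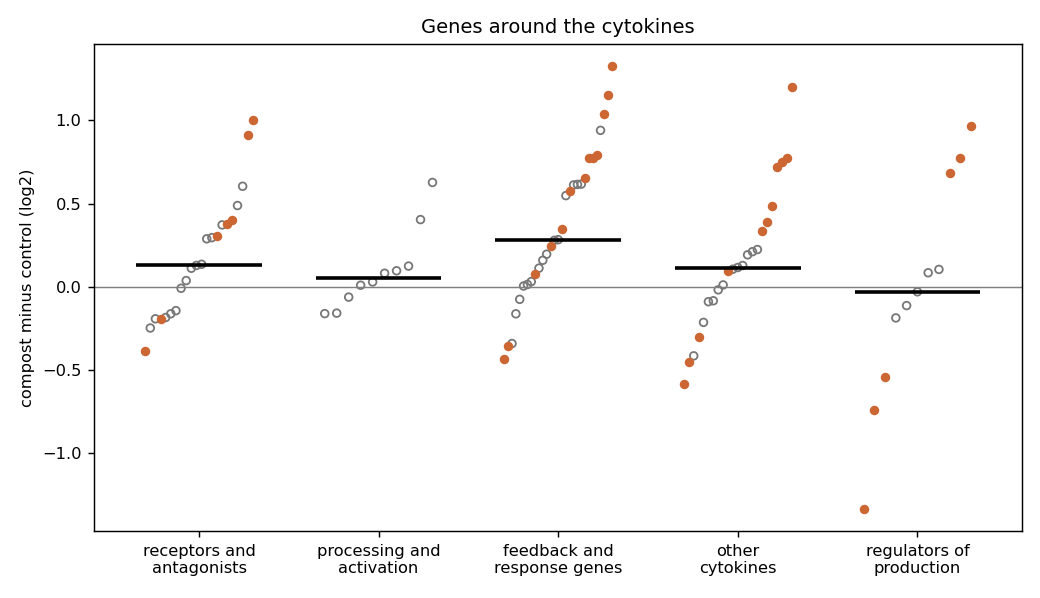
Compost minus control on the log2 scale for each tested gene of the 5 pathway lists. Orange filled points are genes whose groups do not overlap, open grey points are genes whose groups overlap, and the bar marks the list's median, from -0.03 for regulators to 0.28 for feedback and response genes.

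Cell type markers were read from the same arrays, since each cytokine is made by particular cells. Summed levels are on the linear scale, relative to the 75th percentile of the array, in the order of the rats given above. The counts of markers without overlap stand beside 12.7% higher and 15.2% lower over all genes tested. All 6 tested B cell markers were higher in compost rats without overlap, with a median of 1.85 and sums of 0.30, 0.33, 0.68 and 2.21. That median was 0.63 with normexp and 1.12 to 2.67 with 1 array left out. Cr2 and Ms4a1 were not well above background on either control array, so they passed the filter only through the compost arrays. Their higher level in compost rats is in part a result of that filter, and the median of 1.85 includes both. All 9 tested markers of lymphoid follicles, Cr2 again among them, were higher without overlap, with a median of 1.08 and sums of 9.01, 8.56, 14.6 and 25.6. Of 6 plasma cell markers 5 were higher without overlap, with a median of 0.91 and sums of 212, 262, 231 and 254. Sdc1, which epithelium also expresses, carried most of these sums, with a level of at least 7.70 on every array, against at most 3.25 for the others, and a difference of -0.01 ± 0.21.

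T cell markers had a median of 0.08 over 11 tested genes, which was 0.63 without control rat 1 and -0.47 without control rat 2. Cd2 was the 1 marker whose groups did not overlap, with 1.60 ± 0.23, and it was above background on 1 of 2 control arrays. The sums were 46.3, 23.1, 26.8 and 40.9, highest in control rat 1. Cd4 and Cd28 were too dim to test. Markers of natural killer and innate lymphoid cells had a median of 0.26 over 8 genes and sums of 26.8, 24.9, 45.3 and 56.5. Klrd1, a receptor of natural killer cells, was lower without overlap, at -0.87 ± 0.18. Gzmb, a protease of cytotoxic granules, had levels of -3.84 and 3.47 in control rats and 4.21 and 4.98 in compost rats, so control rat 1 stood far below the other arrays. Gzmb and Gzma, another such protease, carried most of the sums of this list. Gzma had levels of 4.59 and 3.59 in control rats and 4.58 and 4.50 in compost rats, which overlapped.

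Markers of macrophages and dendritic cells had a median of 0.53 over 13 genes, with 4 higher without overlap (Fcgr3a, C1qb, C1qc and Cd14) and sums of 277, 360, 361 and 258. That median was 0.05 without compost rat 1 and 1.01 without compost rat 2. Lyz2 carried most of the sums, with levels of 7.76, 8.31, 8.04 and 7.63 and a difference of -0.20 ± 0.28. Neutrophil markers had a median of 0.58 over 4 genes and sums of 18.4, 29.0, 26.6 and 27.2, with Camp alone lower without overlap. With 1 array left out that median ran from -0.31 to 1.22. Mast cell markers had a median of 0.44 over 7 genes that all overlapped, with sums of 9.20, 6.49, 21.3 and 7.79, and the median was -0.28 without compost rat 1 and 1.09 without compost rat 2. Il10, Ifng, Tgfb1 and Il1b were highest in compost rat 1. So were, by their median after centring each gene on its mean, the markers of plasma cells (0.87 against 0.12 in compost rat 2), macrophages and dendritic cells (0.71 against -0.23) and mast cells (0.99 against -0.54). Markers of natural killer and innate lymphoid cells (0.31 against -0.05) and of stroma, endothelium and muscle (0.29 against -0.22) were highest in compost rat 1 as well. B cell (0.14 against 1.70) and follicle markers (0.19 against 1.15) were highest in compost rat 2.

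All 11 tested markers of absorptive enterocytes, a source of Il15 and Il18 together with other epithelium, were lower in compost rats. Lct, the lactase of the brush border, and Alpi, its alkaline phosphatase, were not well above background on either compost array and were at least 4.0-fold and at least 5.3-fold lower there. They passed the filter only through the control arrays. Their lower level in compost rats is in part a result of that filter, and the 11 genes and their median include both. Apoa4, an apolipoprotein of fat absorption, differed by -1.60 ± 0.39 and Anpep, a brush border peptidase, by -0.75 ± 0.21. Of the 11, 7 did not overlap, the median was -0.53, and the sums were 2532, 2012, 1404 and 1801. Il15, at -0.62, lay lower on the same 2 arrays, and Il18 did not. Markers of epithelium in general had a median of -0.01 over 9 genes, with sums of 1724, 1695, 1522 and 1950. Stromal, endothelial and muscle markers had a median of 0.15 over 10 genes, with sums of 84.9, 67.1, 107 and 66.3. The part of these cell types in the cytokine differences was not tested.

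**Figure D5:**
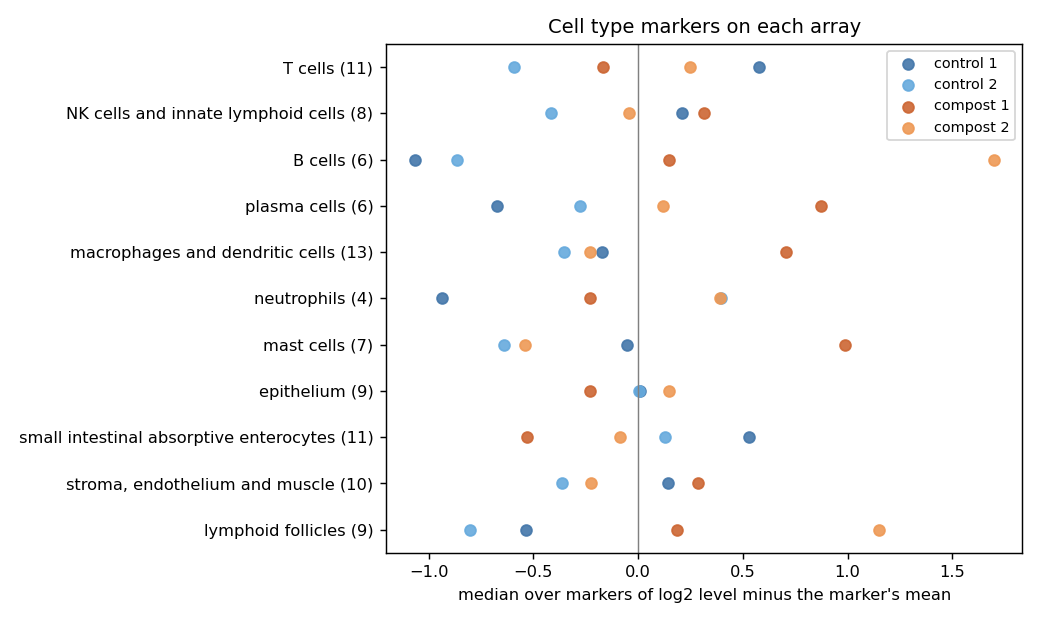
Median marker level of each cell type on each array, after each gene was centred on its mean over the 4 arrays, with the number of tested markers in brackets. B cell and follicle markers are higher on both compost arrays and absorptive enterocyte markers are lower on both, while T cell markers are mixed.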

How the data were processed

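Each rat's total RNA, labelled with Cy3, went to 1 Agilent whole rat genome array of 1 colour, per the labels. The deposited scanner files hold each spot's intensity as written by Feature Extraction 9.1.3.1, detrended and background-subtracted on a linear scale per the file headers and not scaled between arrays, with the raw signal, local background and flags. The authors' deposited value table holds the same intensity within 0.497%, on the linear scale and uncentred, with medians of 80.2, 79.4, 102 and 73.9.

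Control spots and spots marked as outliers were dropped, with the loss of 31 probes. The log2 intensity was averaged over a probe's spots, and the array's 75th percentile was subtracted. Probes with most of their spots (a share over 0.5) well above background on at least 2 of 4 arrays were kept, 28415 in all. They were fitted with lmFit and eBayes in limma 3.58.1 (R 4.3.3), with two-sided p-values adjusted over all of them by Benjamini-Hochberg and a threshold of 0.05. The fit was tested on simulated data. A gene stood for its kept probe with the highest mean. A bound for a probe below background on a whole group used the higher of its own level and the lowest level above background on each array. Gene names came from RefSeq (GRCr8): an accession named 10835 probes, a symbol 5201 and a synonym 3488, while 21488 kept the file's name.

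The members, the lists and the naming rule were chosen with earlier results of these data known. Every member was named, with up to 4 genes of each list by smallest p and the 5 genes nearest to each member that differed by at least 0.5 without overlap. Alternatives were the background correction, the scaling, the filter, the variance model, a replicate block, the value table, the summary over spots and each array left out. Probe sequences and proteins were not used here.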

Additional observations from a re-analysis of the deposited data

How the results depend on the processing

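No member probe passed the threshold under any of the 13 alternatives run. Over all probes, 1 passed with normexp background correction and 0 to 2 with 1 array left out, the 2 without control rat 2. The median over the 7 member genes was 0.45. It was 0.34 with normexp and 0.20 to 0.71 with 1 array left out. Of 156 values of member probes under the alternatives, 150 kept their direction. The 6 that turned came from leaving out 1 array, in Il18 and Il33: the 2 Il18 probes ran from -0.48 to 0.30 and from -0.43 to 0.35, and the 2 Il33 probes from -0.33 to 0.071 and from -0.24 to 0.12. The limma adjusted p ran from 0.477 to 1.0 for Il10 and for Ifng, and from 0.485 to 1.0 for Il15. The other scalings moved the median of all probes by 0.0053 and -0.012 on the log2 scale.

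Deviations from the group mean had a correlation of -0.04 between rats with the same replicate number. Within a group these deviations mirror each other, so both pairs must give the same value and the pairs are not separate evidence. That value cannot decide by itself whether the rats were paired. The replicate numbers were not taken to pair them. With the replicate number as a block, 0 probes and 0 member probes passed and the member median was 0.45. The median over spots was chosen after the repeated spots were seen. Signal over background limits Tnf, Il6 and, through the size of its difference, Il10, Ifng, Tgfb1 and Il4: normexp, which adds an offset, gave smaller differences for these dim probes. The number of arrays limits every comparison, those of the dim probes included.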
